A study of Homo sapiens with 12 samples.

Results

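The genes described here are 10 angiogenic factors and receptors: the secreted factors VEGFA, VEGFB, VEGFC, PGF, PDGFB, EDN1 and ANGPTL4, the receptors NRP1 and NRP2, and the matrix protein THBS1. They were chosen by name from the 61044 rows of the count table, with earlier results of these data known, and each had 1 row. The RNA came from SCC-15 cells, an established human line of oral squamous cell carcinoma, a cancer of the lining of the mouth. The cells carried either a control hairpin (shRNA-NC, here NC) or a short hairpin RNA against FMOD, the gene of the matrix proteoglycan fibromodulin. The 3 hairpins against FMOD are called shRNA1, shRNA2 and shRNA3, and every group has 3 libraries harvested at 48 hours, 12 libraries in all. All groups carry a hairpin, so no group shows the cells without one. Nothing in the labels says that the libraries of a group came from separate cultures, so the p-values measure only the spread between these libraries, which may be technical. A single cell line was used, and a tumour line grown alone holds no vessels on which these factors could act.

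The members of the VEGF family are secreted growth factors that act on receptor tyrosine kinases of blood and lymphatic vessel cells, with the neuropilins as co-receptors that also bind class 3 semaphorins. Tumour cells release such factors, and VEGFA and ANGPTL4 are textbook targets of the hypoxia-inducible factors (HIF), while thrombospondin 1, the product of THBS1, is a secreted inhibitor of vessel growth. PDGFB draws in pericytes, the cells that wrap small vessels, and EDN1 gives endothelin 1, a peptide that narrows vessels.

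Library totals lay between 17287017 and 19567289 estimated counts, and 17532 genes passed the filter on low counts. The targeted gene gave little to check the labels with: FMOD had 2, 2 and 3 counts in the NC libraries and 0 in each of the 9 shRNA libraries, where 3 counts stand for 0.145 to 0.222 CPM (counts in 1000000 of the TMM-scaled library) over the 12 libraries. The NC libraries stood apart from all others, with a Pearson r of log2(CPM + 1) across genes from 0.829 to 0.855 against any shRNA library and from 0.993 to 0.994 among themselves. Every comparison with NC rests on those 3 libraries. Within shRNA3, libraries 1 and 2 stood apart from library 3, with an r of 0.916 and 0.919 against it and 0.995 between them. The r of an shRNA3 library with another hairpin's library reached 0.982 for shRNA1 (median 0.909) and 0.988 for shRNA2 (median 0.929). These highest values lie above the r of library 3 with libraries 1 and 2. Log2 fold changes of genes other than the 10 with shRNA3 are from all 3 libraries, which can lie far apart. For the 10 genes, changes with shRNA3 against NC are also given from library 3 alone. In that fit shRNA3 has 1 library and no spread of its own, so its p-values take the spread from the other groups and assume that the lone library varies like theirs; this holds wherever library 3 alone is named. The epithelial identity of the cells was checked on 10 squamous markers, all of which passed the filter and summed to 2657 to 2829 CPM in NC, 2064 to 2399 with shRNA1, 2399 to 2457 with shRNA2 and 2158 to 3292 with shRNA3. Of these, KRT14, KRT6A, KRT17 and PERP were higher with all 3 hairpins, and the basal keratin KRT5 and E-cadherin (CDH1) were lower.

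All 10 genes passed the filter on low counts. Against NC, 7 of them differed with shRNA1 (4 higher and 3 lower), 8 with shRNA2 (4 higher and 4 lower) and 7 with shRNA3 (5 higher and 2 lower), at an adjusted p-value under 0.05 by edgeR's quasi-likelihood test with Benjamini-Hochberg adjustment over all tested genes. Of all tested genes, 57.4% differed with shRNA1 (26.8% higher, 30.6% lower), 53.0% with shRNA2 (24.6% higher, 28.4% lower) and 53.9% with shRNA3 (26.4% higher, 27.6% lower), so a call in any single comparison is what most genes of these libraries gave. The same 6 genes were called in 1 direction with all 3 hairpins, VEGFC, ANGPTL4, NRP1 and NRP2 higher and VEGFB and THBS1 lower, where 35.7% of all tested genes were (16.0% higher and 19.7% lower). In those 6 genes the 9 shRNA libraries also lay beyond all 3 NC libraries, as in 44.8% of all tested genes (19.0% above, 25.8% below). PGF passed with none of the hairpins, as 24.3% of all tested genes did, and no member was called in opposite directions by different hairpins, as 0.502% of all tested genes were. The 3 comparisons share the NC libraries and are not independent of each other. Sign aside, the 10 genes had a median log2 fold change of 1.77, 1.47 and 1.09 with shRNA1, shRNA2 and shRNA3, beside 0.92, 0.85 and 0.87 over all tested genes.

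**Figure D1:**
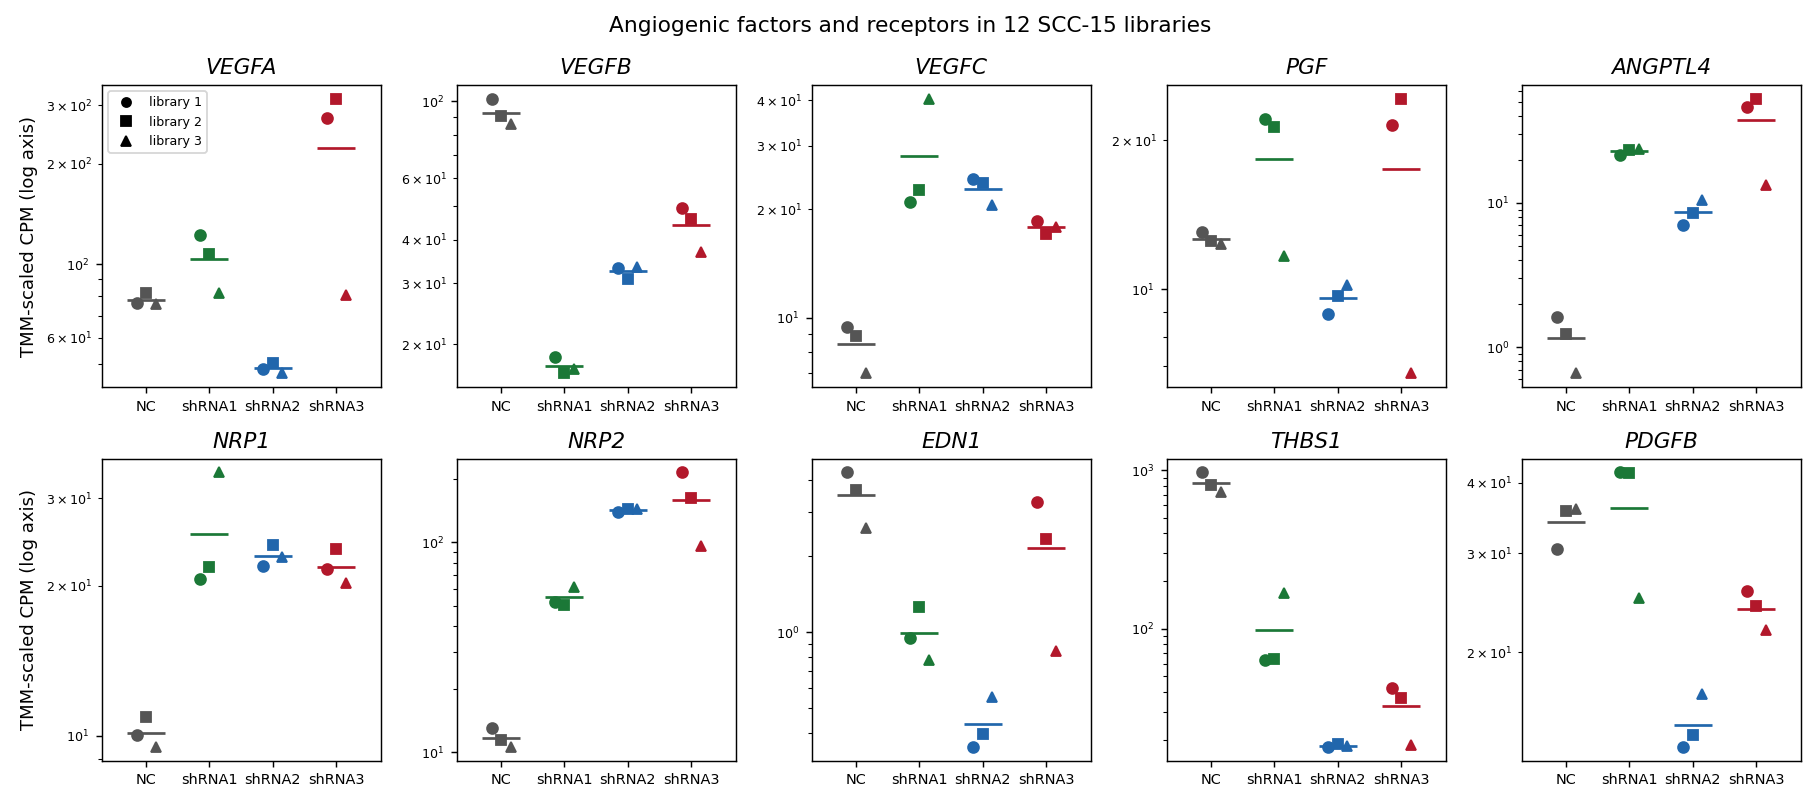
TMM-scaled level in CPM (log axis) of each of the 10 genes in every library, with 1 panel for each gene, 1 column of points for each group, a shape for each library and a line at the group mean. In the panels of VEGFC, ANGPTL4, NRP1 and NRP2 the 9 shRNA libraries lie above the NC libraries, in those of VEGFB and THBS1 they lie below them, and in VEGFA and PGF shRNA3 libraries 1 and 2 lie apart from library 3.

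The bases just before the start of 5 of the 6 genes that were called alike are shown because they are the sequences next to the starts of genes that moved together. They are from the RefSeq promoter table on GRCh38.p14, read 5′ to 3′ on the gene's strand within the 250 bases before the start and cut where an annotated exon of GENCODE 29 begins. Windows were held for 7 of the 10 genes and not for VEGFA, NRP1 and PDGFB. Capitals mark ACGTG or GCGTG, the core letters of the HIF binding motif, found on either strand (CACGT or CACGC as printed when it lies on the other strand).
ANGPTL4 (chr19:8363905-8364150, + strand): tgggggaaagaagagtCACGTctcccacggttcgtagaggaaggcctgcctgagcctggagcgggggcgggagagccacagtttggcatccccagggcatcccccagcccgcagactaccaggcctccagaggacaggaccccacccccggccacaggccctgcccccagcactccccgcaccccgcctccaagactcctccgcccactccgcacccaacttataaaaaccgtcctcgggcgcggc
VEGFC (chr4:176792923-176793172, - strand): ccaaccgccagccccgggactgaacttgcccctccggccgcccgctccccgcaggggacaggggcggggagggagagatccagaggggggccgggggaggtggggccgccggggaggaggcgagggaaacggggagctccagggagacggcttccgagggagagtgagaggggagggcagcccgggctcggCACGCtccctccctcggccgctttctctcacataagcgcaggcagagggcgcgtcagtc
NRP2 (chr2:205682251-205682499, + strand): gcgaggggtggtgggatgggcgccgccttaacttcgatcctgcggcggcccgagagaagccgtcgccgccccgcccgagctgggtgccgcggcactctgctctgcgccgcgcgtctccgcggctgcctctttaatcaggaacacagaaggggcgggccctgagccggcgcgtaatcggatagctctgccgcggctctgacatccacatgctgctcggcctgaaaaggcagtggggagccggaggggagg
VEGFB (chr11:64234353-64234537, + strand): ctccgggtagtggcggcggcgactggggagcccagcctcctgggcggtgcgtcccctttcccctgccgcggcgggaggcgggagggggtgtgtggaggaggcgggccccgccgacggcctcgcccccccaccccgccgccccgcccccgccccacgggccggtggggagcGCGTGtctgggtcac
THBS1 (chr15:39580829-39581078, + strand): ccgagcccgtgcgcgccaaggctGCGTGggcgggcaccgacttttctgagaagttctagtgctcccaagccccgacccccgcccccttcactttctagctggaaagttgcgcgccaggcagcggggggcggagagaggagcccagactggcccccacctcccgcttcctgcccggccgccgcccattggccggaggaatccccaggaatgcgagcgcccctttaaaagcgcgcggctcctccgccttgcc
The letters occur 1 time each before ANGPTL4 (at -234), VEGFC (at -59), VEGFB (at -61) and THBS1 (at -227), and not in the 250 bases before NRP2. Of 35116 RefSeq windows of the same 250 bases, 43.2% hold them at least 1 time and 19.4% at least 2 times, so 1 match in such a window is common. The genes that rose and the genes that fell both include windows with the letters, and a match here is a description of the sequence, not a binding site. Before ANGPTL4 the window also holds TATAAA, the TATA box letters, which 6.8% of all windows hold on the gene's strand. The share of G and C in the 250 bases was 68.8% before ANGPTL4, 74% before VEGFC, 70% before NRP2, 82.8% before VEGFB and 69.6% before THBS1, where the median over all windows was 58%. Of the genes that were not called alike, EDN1 has 3 RefSeq starts, with 3, 0 and 1 matches in the windows before them.

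VEGFA, the main growth factor for blood vessels (chromosome 6, 43770184 to 43786487, plus strand, GRCh38), varied between the hairpins and, within shRNA3, between the libraries. Its level was 76.6, 81.7 and 75.6 CPM in the NC libraries 1, 2 and 3. It was 123, 107 and 81.7 CPM with shRNA1 and 48.4, 50.5 and 46.9 CPM with shRNA2. With shRNA3 it was 276 and 314 CPM in libraries 1 and 2 and 80.8 CPM in library 3. The shRNA2 libraries all lay below NC and the shRNA1 libraries at or above its top, while shRNA3 library 3 lay among the NC libraries. Against NC the log2 fold change was 1.52 (SE 0.37) with shRNA3, the single comparison with NC that passed for this gene (edgeR adjusted p = 0.00506). From shRNA3 library 3 alone it was 0.08 (adjusted p = 0.714, with the spread taken from the other groups), and the call was not made without libraries 1 and 2. The values with shRNA1 (0.41, SE 0.37, adjusted p = 0.357) and shRNA2 (-0.68, SE 0.37, adjusted p = 0.142) did not pass. Without shRNA3 libraries 1 and 2 in the model both passed, at 0.43 (adjusted p = 0.00756) and -0.66 (adjusted p = 0.000407). Between hairpins, shRNA3 was above shRNA1 (shRNA1 minus shRNA3, -1.11, edgeR adjusted p = 0.0436) and above shRNA2 (shRNA2 minus shRNA3, -2.20, edgeR adjusted p = 0.0248). From shRNA3 library 3 alone these differences were 0.35 and -0.74. Of 20 other settings, the first call was lost in 15 and its sign turned in 1, and the second call was lost in 10. The difference between shRNA1 and shRNA2 (1.10, edgeR adjusted p = 0.0792) did not pass. VEGFA overlaps an antisense gene, AL136131.3, and whether the counting used strand is not given in the sources used here.

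The split within shRNA3 went both ways among the HIF targets. Of 24 other HIF targets, 16 were higher in both libraries 1 and 2 than in library 3 and 6 were lower (12 and 8 under scaling by library totals). Of the 10 genes themselves 9 were higher and none lower (6 and 4 under library totals). The share of all tested genes with either order was not counted, so these counts have no background to be read against. The TMM factors were 0.771 and 0.795 in libraries 1 and 2 and 1.06 in library 3. ADM, which encodes the vessel-widening peptide adrenomedullin, was at 191 and 232 CPM in libraries 1 and 2 and at 33.4 CPM in library 3, where NC lay between 23.1 and 31.8 CPM. NDRG1, a stress-response gene, was at 1672 and 1721 CPM against 347 CPM, with NC between 147 and 151 CPM. EGLN3, a HIF prolyl hydroxylase, had the opposite order, at 8.60 and 13.8 CPM against 42.6 CPM, with NC between 32.6 and 34.5 CPM. AK4, an adenylate kinase, was at 78.1 and 68.7 CPM against 155 CPM, with NC between 79.2 and 84.3 CPM.

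VEGFB, a relative of VEGFA that binds VEGF receptor 1 (chromosome 11, 64234538 to 64238793, plus strand, no overlapping gene), fell with every hairpin. It was at 102, 90.5 and 86.0 CPM in NC, and at 18.4, 16.5 and 17 CPM with shRNA1. With shRNA2 it was at 33.2, 30.8 and 33.5 CPM and with shRNA3 at 49.4, 45.9 and 36.9 CPM. All 9 shRNA libraries lay below the lowest NC library, the shRNA1 libraries lowest and clear of the other hairpins. The level was 5.36-fold lower with shRNA1 (log2 fold change -2.42, SE 0.15, adjusted p = 3.42e-07). It was 2.85-fold lower with shRNA2 (-1.51, SE 0.14, adjusted p = 6.34e-06) and 2.11-fold lower with shRNA3 (-1.07, SE 0.14, adjusted p = 7.36e-05). The log2 fold change was -1.30 from shRNA3 library 3 alone. Between hairpins, shRNA1 was below shRNA2 by a log2 difference of -0.91 (adjusted p = 0.00393) and below shRNA3 by -1.35 (adjusted p = 0.00152), while shRNA2 and shRNA3 differed by -0.44 (SE 0.14, adjusted p = 0.0675).

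VEGFC, the ligand that drives the growth of lymphatic vessels (chromosome 4, 176683538 to 176792727, minus strand), rose with every hairpin. It was at 9.44, 8.86 and 7.0 CPM in NC and at 20.9, 22.6 and 40.5 CPM with shRNA1. With shRNA2 it was at 24.3, 23.6 and 20.5 CPM and with shRNA3 at 18.5, 17.1 and 17.9 CPM. The lowest shRNA library was above the highest NC library, and shRNA1 library 3 was the highest of all. The level was 3.32-fold higher with shRNA1 (log2 fold change 1.73, SE 0.25, adjusted p = 0.000143), 2.70-fold with shRNA2 (1.43, SE 0.25, adjusted p = 0.000540) and 2.11-fold with shRNA3 (1.08, SE 0.25, adjusted p = 0.00338). In shRNA3 the gene did not split the libraries as VEGFA did, and from library 3 alone the change was 1.11. No pair of hairpins passed: the differences were 0.30, 0.65 and 0.35 on the log2 scale, each with an SE of 0.24. VEGFB and VEGFC thus moved in opposite directions against the same NC libraries. VEGFC overlaps the antisense gene AC093801.1.

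PGF, placental growth factor, which binds VEGF receptor 1 (chromosome 14, 74941834 to 74955784, minus strand, no overlapping gene), was the gene that passed against NC with none of the hairpins. It was at 13.0, 12.5 and 12.3 CPM in NC. It was at 22.1, 21.3 and 11.7 CPM with shRNA1, at 8.90, 9.70 and 10.2 CPM with shRNA2 and at 21.4, 24.3 and 6.75 CPM with shRNA3. Of the shRNA libraries 4 lay above all NC libraries and 5 below, and within shRNA1 and shRNA3 library 3 lay well below the other two. The log2 fold changes were 0.54, -0.40 and 0.47 with shRNA1, shRNA2 and shRNA3 (adjusted p = 0.259, 0.424 and 0.338). The value with shRNA3 turned with the libraries kept: it was -0.87 from library 3 alone (adjusted p = 0.0288, a single library with its spread taken from the other groups) and 0.85 without library 3 (adjusted p = 0.00232). Without shRNA3 library 3 in the model the value with shRNA1 also passed, at 0.55 (adjusted p = 0.0184).

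PDGFB (chromosome 22, 39223359 to 39244751, minus strand), which signals through PDGFRB on pericytes, fell with shRNA2. It was at 30.5, 35.6 and 35.9 CPM in NC and at 41.7, 41.7 and 24.9 CPM with shRNA1. It was at 13.6, 14.3 and 16.8 CPM with shRNA2 and at 25.7, 24.1 and 21.9 CPM with shRNA3. The shRNA2 and shRNA3 libraries all lay below NC, while the shRNA1 libraries lay on both sides of it. The level was 2.28-fold lower with shRNA2 (log2 fold change -1.19, SE 0.21, adjusted p = 0.000513). The values with shRNA3 (-0.51, SE 0.20, edgeR adjusted p = 0.0517) and shRNA1 (0.09, SE 0.20, edgeR adjusted p = 0.740) did not pass. The value with shRNA3 passed in 5 of 20 other settings, among them library totals (-0.86, edgeR adjusted p = 0.00663) and the DESeq2 Wald test (-0.52, adjusted p = 0.0341). This value was -0.61 from shRNA3 library 3 alone. Between hairpins, shRNA1 was above shRNA2 by 1.28 (adjusted p = 0.00460) and above shRNA3 by 0.60 (adjusted p = 0.0461), and the latter was lost in 15 of 20 other settings. PDGFB overlaps the antisense gene AL031590.1.

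EDN1 (chromosome 6, 12290363 to 12297194, plus strand, no overlapping gene) was the least abundant gene of the 10 in CPM with shRNA1, shRNA2 and shRNA3. It was at 4.29, 3.64 and 2.59 CPM in NC and at 0.945, 1.26 and 0.774 CPM with shRNA1. It was at 0.351, 0.395 and 0.554 CPM with shRNA2, which stands for 6 to 10 counts a library, and at 3.26, 2.33 and 0.844 CPM with shRNA3. The shRNA1 and shRNA2 libraries and shRNA3 libraries 2 and 3 lay below all NC libraries, and shRNA3 library 1 lay among them. EDN1 fell 3.51-fold with shRNA1 (log2 fold change -1.81, SE 0.46, adjusted p = 0.00554) and 7.97-fold with shRNA2 (-3.00, SE 0.50, adjusted p = 0.000406). With shRNA3 the change was -0.72 (SE 0.44, edgeR adjusted p = 0.189), and from library 3 alone it was -2.02. Scaled by library totals in place of TMM, the value with shRNA3 was -1.14 (adjusted p = 0.0318). The shRNA2 level was below that of shRNA3 by -2.27 (edgeR adjusted p = 0.0321), and by -0.96 from library 3 alone.

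ANGPTL4 encodes a secreted inhibitor of lipoprotein lipase with effects on vessel growth and leakiness (chromosome 19, 8363289 to 8374373, plus strand). It rose from the lowest level of the 10 genes in NC, at 1.62, 1.23 and 0.660 CPM (13 to 32 counts a library). It was at 21.4, 23.4 and 23.8 CPM with shRNA1, at 7.08, 8.51 and 10.5 CPM with shRNA2 and at 45.9, 52.8 and 13.4 CPM with shRNA3. Every shRNA library lay above every NC library, and shRNA3 libraries 1 and 2 were again far above library 3. The level was 19.5-fold higher with shRNA1 (log2 fold change 4.28, SE 0.50, adjusted p = 3.04e-05) and 7.40-fold higher with shRNA2 (2.89, SE 0.48, adjusted p = 0.000411). With shRNA3 it was 31.7-fold higher (4.99, SE 0.51, edgeR adjusted p = 1.34e-05), and the log2 change from library 3 alone was 3.54. The difference between shRNA2 and shRNA3 (-2.10, edgeR adjusted p = 0.0294) was -0.64 from library 3 alone. ANGPTL4 overlaps the antisense gene RAB11B-AS1.

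The neuropilins, co-receptors for VEGF and for class 3 semaphorins, both rose with every hairpin, NRP1 by a similar amount each time and NRP2 by amounts that differed. NRP1 (chromosome 10, 33177492 to 33336262, minus strand) was at 10.0, 10.9 and 9.49 CPM in NC. It was at 20.6, 21.8 and 33.8 CPM with shRNA1, at 21.9, 24.1 and 22.8 CPM with shRNA2 and at 21.6, 23.7 and 20.3 CPM with shRNA3. The lowest shRNA library was above the highest NC library, and shRNA1 library 3 stood highest, as for VEGFC. The level was 2.51-fold higher with shRNA1 (log2 fold change 1.33, adjusted p = 0.000191), 2.26-fold with shRNA2 (1.18, adjusted p = 0.000459) and 2.15-fold with shRNA3 (1.11, adjusted p = 0.000721), each with an SE of 0.20. Between hairpins the fitted differences were 0.15, 0.22 and 0.07 with an SE of 0.20 each, and none passed (adjusted p = 0.670, 0.403 and 0.823). From shRNA3 library 3 alone the change against NC was 1.03. NRP1 overlaps the antisense gene AL121748.2 and the small RNA gene RN7SL398P on its own strand.

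NRP2 (chromosome 2, 205681990 to 205798133, plus strand), the neuropilin that binds VEGFC and SEMA3F, was at 13.1, 11.4 and 10.6 CPM in NC. It was at 52.2, 50.5 and 61.2 CPM with shRNA1, at 139, 144 and 144 CPM with shRNA2 and at 215, 163 and 96.5 CPM with shRNA3. All shRNA libraries were above NC, and the shRNA1 libraries lay below all libraries of the other hairpins. The level was 4.67-fold higher with shRNA1 (log2 fold change 2.22, SE 0.24, adjusted p = 1.93e-05), 12.2-fold with shRNA2 (3.60, SE 0.26, adjusted p = 9.72e-07) and 13.5-fold with shRNA3 (3.75, SE 0.26, adjusted p = 8.04e-07). From shRNA3 library 3 alone the log2 fold change was 3.07. The level with shRNA1 was below that with shRNA2 by -1.38 (adjusted p = 0.00555) and below that with shRNA3 by -1.53 (adjusted p = 0.00346). NRP2 overlaps the antisense gene AC007362.1.

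THBS1 (chromosome 15, 39581079 to 39599466, plus strand), the most abundant of the 10 genes in NC, fell furthest. It was at 969, 812 and 726 CPM in NC and at 63.3, 64.1 and 168 CPM with shRNA1. It was at 17.9, 18.8 and 18.3 CPM with shRNA2 and at 42.4, 36.6 and 18.4 CPM with shRNA3. No shRNA library came near the NC range, and shRNA1 library 3 was the highest of them. The level was 8.48-fold lower with shRNA1 (log2 fold change -3.08, SE 0.40, adjusted p = 7.07e-05), 45.6-fold lower with shRNA2 (-5.51, SE 0.46, adjusted p = 2.72e-06) and 25.8-fold lower with shRNA3 (-4.69, SE 0.44, adjusted p = 6.60e-06). From shRNA3 library 3 alone the change was -5.48. The level with shRNA1 stayed above that with shRNA2 by 2.43 (adjusted p = 0.00495) and above that with shRNA3 by 1.61 (adjusted p = 0.0139). THBS1 overlaps FSIP1, a coding gene on the opposite strand, and 2 further annotated transcripts (AC037198.1 and AC037198.2).

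**Figure D2:**
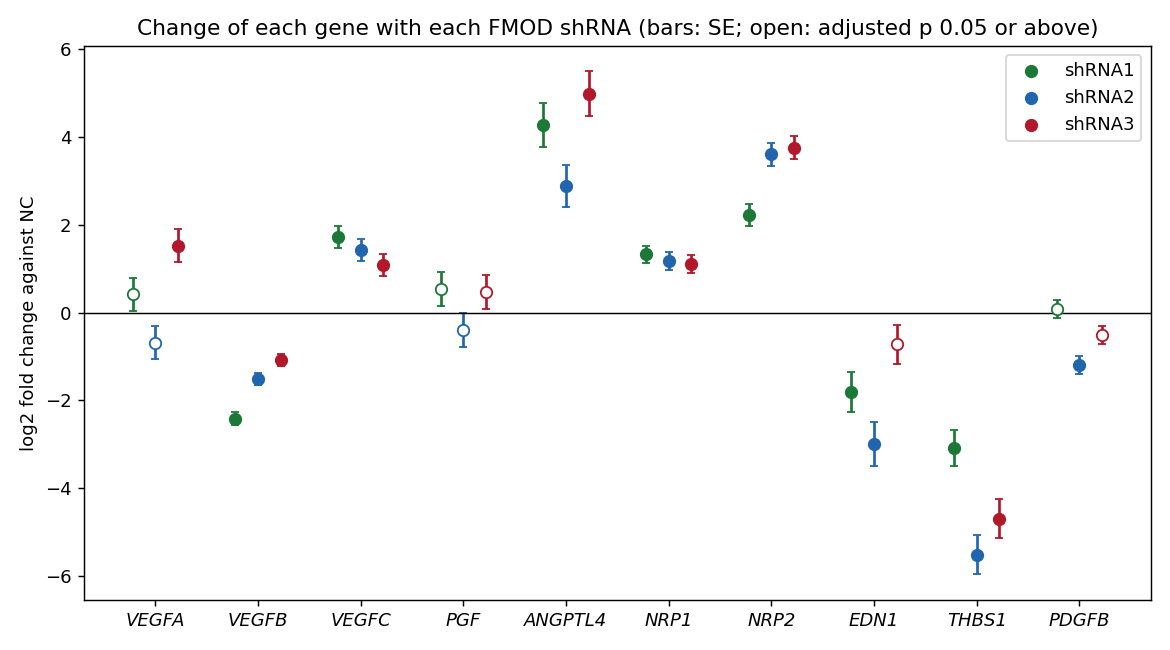
Log2 fold change of each gene against NC for each hairpin with its standard error (bars), from edgeR's model of the 12 libraries, open where the adjusted p was 0.05 or above. VEGFC, ANGPTL4, NRP1 and NRP2 lie above 0 and VEGFB and THBS1 below 0 with all 3 hairpins, from -5.51 for THBS1 with shRNA2 to 4.99 for ANGPTL4 with shRNA3.

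The 3 hairpins were also compared with one another. Of the 10 genes, 4 differed between shRNA1 and shRNA2, 2 higher and 2 lower with shRNA1, where 12.3% of all tested genes differed (5.78% higher, 6.53% lower). Between shRNA1 and shRNA3 5 differed, 2 higher and 3 lower with shRNA1, beside 30.0% of all tested genes (11.9% higher, 18.1% lower). Between shRNA2 and shRNA3 3 differed, all lower with shRNA2, beside 8.34% of all tested genes (1.91% higher, 6.43% lower). In all, 7 genes differed in at least 1 pair, as 37.2% of all tested genes did, and none differed in all 3 pairs, where 0.279% of all tested genes did. The 3 differences between shRNA2 and shRNA3 (VEGFA, ANGPTL4 and EDN1) were not called from shRNA3 library 3 alone, when 0 members were called in a fit that takes the spread of that single library from the other groups. Beside that 0, 4 members had an unadjusted p under 0.05, and edgeR called 244 of all tested genes. They were also lost, with 0 members called, when any 1 of the NC libraries, of the shRNA2 libraries or of shRNA3 libraries 1 and 2 was left out (5 members at an unadjusted p under 0.05 each time). In these fits edgeR called from 0 (without shRNA2 library 1) to 44 (without NC library 1) of all tested genes. Without shRNA3 library 3, 8 members differed in each pair, beside 7233, 11573 and 10800 of 18242 tested genes for shRNA1 against shRNA2, shRNA1 against shRNA3 and shRNA2 against shRNA3. Between shRNA2 and shRNA3, 4 members differed without shRNA1 library 3, beside 1307 of 18263 tested genes. Without shRNA1 library 2, 1 member differed, beside 171 of 18237 tested genes. Between shRNA1 and shRNA3, 3 members were called without any 1 NC library, shRNA1 library 1 or 2, any 1 shRNA2 library, or shRNA3 library 1 or 2. These fits called from 1788 of 18237 tested genes (without shRNA1 library 2) to 4095 of 18293 (without shRNA2 library 3).

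Levels were also divided by the length of all annotated exons of a gene together, for example 14431 bases for VEGFA and 1545 for VEGFB. The transcripts made can be shorter than that, so the order of genes depends in part on the annotation. Per kilobase of annotated exon, THBS1 (91.3 ± 13.5 CPM per kb, SD, n = 3) and VEGFB (60.0 ± 5.22) led in NC. PDGFB (9.05 ± 0.802), VEGFA (5.40 ± 0.224), VEGFC (3.49 ± 0.527), PGF (2.12 ± 0.0608) and EDN1 (1.73 ± 0.423) followed. NRP1 (0.880 ± 0.0610), NRP2 (0.842 ± 0.0907) and ANGPTL4 (0.471 ± 0.194) stood last. The neighbours PGF and EDN1, and NRP1 and NRP2, lay within 1 SD of each other. With shRNA2 the order was led by VEGFB (21.0 ± 0.935), then NRP2 (10.2 ± 0.206) and VEGFC (9.42 ± 0.833), while THBS1 stood at 2.0 ± 0.0502. With shRNA1 the levels of VEGFC (11.6 ± 4.47), VEGFB (11.2 ± 0.637), THBS1 (10.8 ± 6.59), PDGFB (9.60 ± 2.57) and ANGPTL4 (9.22 ± 0.527) lay close together. VEGFB led with shRNA3 too (28.5 ± 4.17), where VEGFA (15.5 ± 8.68), ANGPTL4 (15.1 ± 8.48) and NRP2 (11.4 ± 4.27) came next with a wide spread from library 3. VEGFB, though it fell with every hairpin, was the highest VEGF family gene per kilobase in NC, shRNA2 and shRNA3, and within 1 SD of VEGFC with shRNA1. In CPM, not divided by length, mean VEGFA was above VEGFB with shRNA1 (104 against 17.3), shRNA2 (48.6 against 32.5) and shRNA3 (224 against 44.1). In NC it was below (78.0 against 92.7).

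For 5 of the 6 genes called alike, the tested gene with the most similar pattern was found by Pearson's r of log2(CPM + 1) over the 12 libraries. These were TBC1D17 for VEGFB (r = 0.994), MFAP5 for VEGFC (0.976), TCN1 for ANGPTL4 (0.987), SERBP1 for NRP1 (0.982) and SFTA1P for THBS1 (0.990). The 12 libraries fall into NC on one side and the hairpins on the other, and r is given as a description. None of the 10 members was the most similar gene to any of these 5.

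The VEGF receptor kinases were close to 0 in these epithelial cells. KDR, the main VEGFA receptor of vessels, had at most 1 count in any library, FLT1 at most 6 and FLT4 at most 2, and none of them passed the filter. Of a list of 25 receptors and co-receptors other than the neuropilins, 13 passed, of which 5 were higher and 6 lower with all 3 hairpins. Among the 5 is PLXNA4, whose call with shRNA3 rests on a single library. With shRNA3 its median was 0 CPM and its highest library had 2.38 CPM (48 counts). Of all tested genes, 16.0% were higher and 19.7% lower with all 3. CD47, a receptor for thrombospondin 1, was at 356 ± 35.1 CPM in NC and fell to 58.5 ± 11.5, 42.6 ± 2.28 and 46.9 ± 4.54 CPM with shRNA1, shRNA2 and shRNA3 (log2 fold changes -2.61, -3.06 and -2.93). The integrin chain ITGAV fell with it (-1.89, -2.17 and -1.86), while ITGB5 rose (0.79, 0.96 and 1.50). PLXNA2, a plexin that pairs with neuropilins in semaphorin signalling, rose (1.01, 1.64 and 1.36), as did the TGF-beta co-receptor ENG (4.11, 4.43 and 3.53) and ACVRL1 (3.57, 3.44 and 4.99), while PLXNA3 fell (-0.86, -1.27 and -0.52). ACVRL1 had 3 to 7 counts in the NC libraries, which limits the precision of its fold changes. PDGFRB, the receptor of PDGFB, fell from 10.7 ± 1.22 CPM in NC to at most 1.29 CPM in any shRNA library. EDNRB, an endothelin receptor, had 54 to 58 counts in the NC libraries and 0 in all 9 shRNA libraries.

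**Figure D3:**
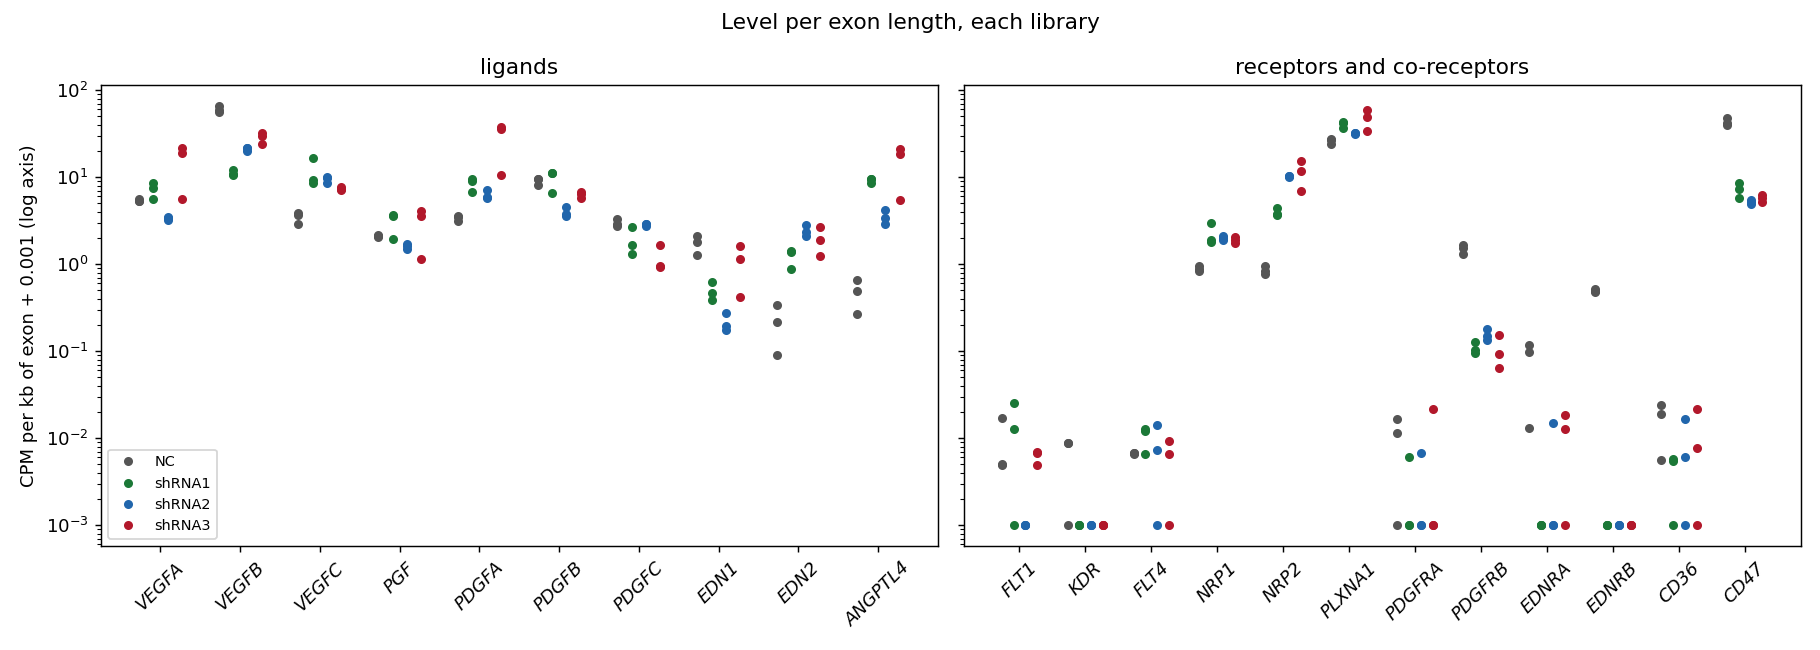
Level per kilobase of annotated exon (TMM-scaled CPM per kb with a small offset, log axis) in each library, for ligands on the left and receptors and co-receptors on the right, with colours for the groups. Points on the bottom line of the right panel are libraries with 0 counts: FLT1, KDR and FLT4 lie at or near that line in every group, NRP1 and NRP2 lie far above it, and CD47, PDGFRB and EDNRB are highest in NC.

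The class 3 semaphorins went both ways: of 7, all tested, 2 were higher and 2 lower with all 3 hairpins. Of all tested genes, 16.0% were higher and 19.7% lower with all 3. SEMA3F, a ligand of NRP2, stood at 13.1 ± 0.109 CPM in NC and rose to 113 ± 18.2, 165 ± 5.62 and 243 ± 115 CPM (log2 fold changes 3.10, 3.65 and 4.21), and SEMA3B rose likewise (3.46, 3.67 and 4.22). SEMA3C fell (-1.29, -2.11 and -3.51), and SEMA3E went from 7.12 ± 0.509 CPM in NC to at most 0.249 CPM in any shRNA library.

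Of 17 other angiogenic ligands 10 were tested, with 3 higher and 2 lower with all 3 hairpins (beside 16.0% and 19.7% of all tested genes). FGF2, basic fibroblast growth factor, stood at 6.28 ± 0.207 CPM in NC and rose to 78.4 ± 6.23, 29.3 ± 1.39 and 40.1 ± 6.29 CPM (log2 fold changes 3.64, 2.22 and 2.67), and EDN2 and ANGPTL2 rose from levels under 1 CPM. The heparin-binding factor MDK fell from 96.2 ± 4.07 CPM to 2.72 ± 0.460, 4.39 ± 1.13 and 6.19 ± 2.27 CPM, and its relative PTN, at 12.4 ± 2.40 CPM in NC, had 0 counts in all 9 shRNA libraries. Among 15 other inhibitors of vessel growth 10 were tested, with 1 higher and 4 lower. TIMP3 rose (1.52, 2.39 and 2.61), while SPARC fell from 725 ± 34.4 CPM to 21.6 ± 7.15, 0.473 ± 0.170 and 1.39 ± 1.06 CPM. COL18A1, the source of endostatin, fell (-1.73, -1.61 and -0.97), as did VASH1 (-2.36, -1.16 and -1.38). With shRNA3, COL18A1 ran from 43.8 to 129 CPM over the libraries. THBS4 went from 1.45 ± 0.0351 CPM in NC to at most 0.166 CPM and 3 counts in any shRNA library. THBS1 thus fell beside 4 of 10 other inhibitors, where 19.7% of all tested genes were lower with all 3 hairpins.

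Of 10 genes that process these factors 7 were tested, with 1 higher and 2 lower with all 3 hairpins. Of all tested genes, 16.0% were higher and 19.7% lower with all 3. ECE1, which cuts the endothelin precursor, fell with all 3 hairpins (-1.87, -1.83 and -1.47), and ADAMTS3, which helps to activate VEGFC, was at 1.69 ± 0.211 CPM in NC and at most 0.199 CPM in any shRNA library. PCSK7, a proprotein convertase, rose by 1.01, 0.91 and 0.80, a call that did not hold for all 3 hairpins under scaling by library totals.

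Members and other genes known as HIF targets did not move in 1 direction. Of 24 other HIF targets, all tested, 6 were higher and 4 lower with all 3 hairpins, beside 16.0% and 19.7% of all tested genes. The list's median log2 fold change was 0.37, -0.14 and 0.02, beside -0.02, -0.05 and -0.03 over all tested genes. The glycolytic gene PGK1 (1.40, 1.28 and 1.52), the glucose transporter SLC2A1 (0.92, 0.75 and 1.16), DDIT4 (1.61, 1.88 and 2.72) and BHLHE40 (3.30, 2.09 and 4.39) rose, and P4HA2 (-1.10, -0.69 and -0.65) and INSIG2 (-1.56, -1.60 and -1.14) fell. With shRNA3, BHLHE40 ran from 154 to 787 CPM over the libraries, where NC lay between 21.1 and 31.3 CPM. VLDLR went from 11.0 ± 0.936 CPM in NC to at most 0.199 CPM in any shRNA library, and CA12 from 2.44 ± 0.406 CPM to at most 0.447 CPM. Of 7 HIF subunits and regulators, VHL rose with all 3 hairpins (0.84, 0.97 and 1.47) and none was lower with all 3, HIF1A being lower with shRNA2 alone (-0.89, adjusted p = 0.0123). Among 10 PPAR factors and targets, a group that regulates ANGPTL4, 7 were tested. PPARG rose from 2.22 ± 0.653 CPM to 27.7 ± 7.79, 41.8 ± 3.06 and 28.3 ± 6.64 CPM, and RXRA rose too (1.35, 1.52 and 1.26). PDK4 had 0 counts in the NC libraries and at least 11 counts in each shRNA library, while PPARA fell (-1.25, -0.88 and -0.81).

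**Figure D4:**
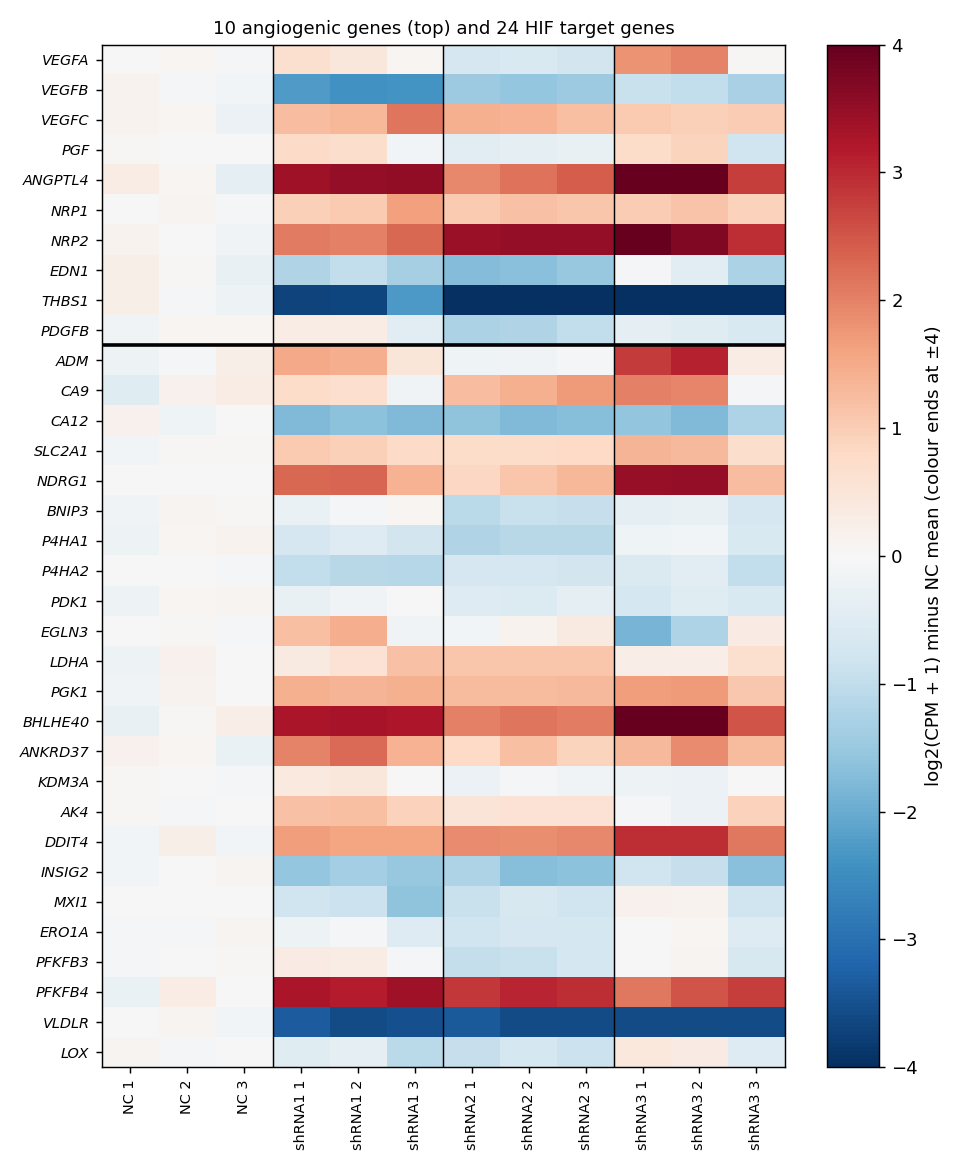
Log2(CPM + 1) minus its NC mean, as colour with its ends at 4 and -4, for the 10 genes (above the line) and 24 HIF targets (below it) in the 12 libraries. The HIF targets hold both red and blue genes, and between shRNA3 libraries 1 and 2 and library 3, VEGFA, ADM and NDRG1 are redder in the former and EGLN3 and AK4 in the latter.

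**Figure D5:**
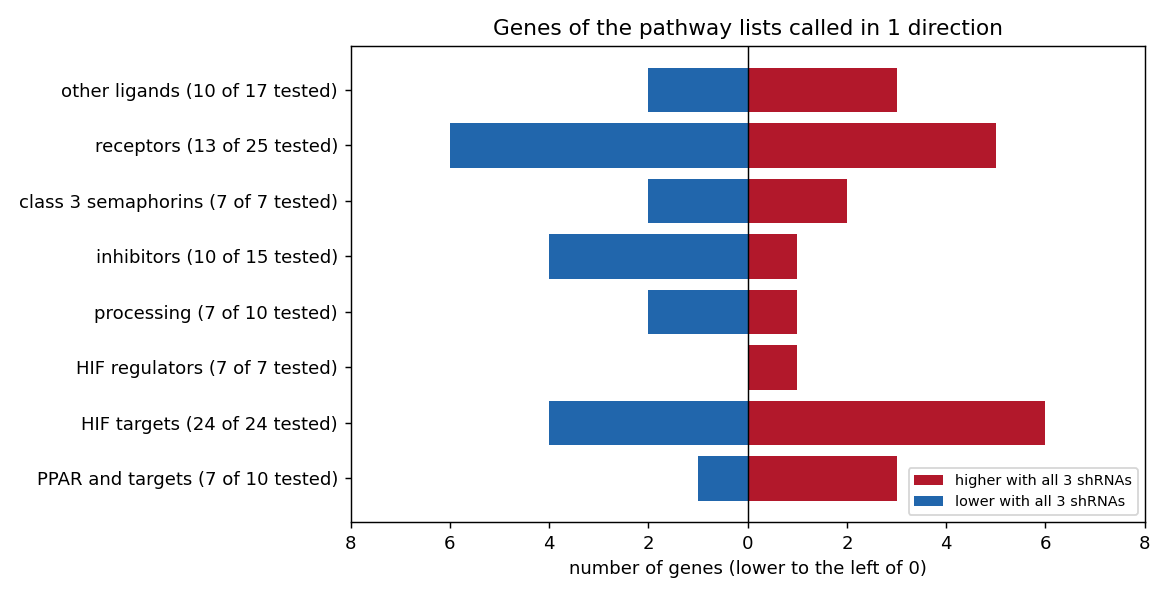
Number of tested genes of each list that were higher or lower with all 3 hairpins against NC (edgeR adjusted p under 0.05), lower to the left of 0 and higher to the right. The HIF targets (6 higher, 4 lower), receptors (5 and 6) and class 3 semaphorins (2 and 2) have genes on both sides, and the inhibitors have 1 higher and 4 lower. The 5 higher receptors include PLXNA4, whose call with shRNA3 rests on a single library. Of all tested genes, 16.0% were higher and 19.7% lower with all 3 hairpins.

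Among markers of other cell types, the summed endothelial markers were lower in every shRNA library than in NC, while the sums of fibroblast and leukocyte markers overlapped NC with at least 1 hairpin. The 11 endothelial markers summed to 18.5 to 24.3 CPM in NC, 7.01 to 11.1 with shRNA1, 9.03 to 10.4 with shRNA2 and 12.4 to 16.9 with shRNA3. Of these, 5 passed the filter, CDH5 and VWF lower and PECAM1 and ESAM higher with all 3 hairpins, while EMCN was at 0 in all libraries and KDR had at most 1 count. Unlike the sum, the median log2 fold change of the 5 was above 0, at 1.80, 1.22 and 1.94 with shRNA1, shRNA2 and shRNA3. Of 8 fibroblast and mural markers 4 passed, and COL1A2, LUM and PDGFRB were lower with all 3 hairpins, with sums of 56.9 to 59.7 CPM in NC, 15.6 to 21.7 with shRNA1, 44.3 to 48.2 with shRNA2 and 33.1 to 86.7 with shRNA3. The 5 leukocyte markers, of which 2 passed and CD14 was lower with all 3 hairpins, summed to 58.8 to 76.3, 44.5 to 97.6, 81.5 to 87.8 and 110 to 236 CPM in the same order of groups. A single cell line was used, so these sums are levels of marker genes and do not count cells of other types. In RNA from whole cultures, fewer cells with a marker and less RNA per cell cannot be told apart. The part of these markers in the values of the 10 genes was not tested.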

How the data were processed

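Total RNA of 12 SCC-15 libraries was measured. The authors deposited 1 table of estimated counts per gene, unscaled, of which 13.8% of values are not whole. Per the submitters' processing notes, HISAT2, HTSeq 0.11.2 and GRCh38 were used, with no role given. Strand use and annotation are not given in the sources used here. Every column matched 1 sample title (0 did not).

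Counts were rounded, scaled by TMM (factors 0.771 to 1.11) and filtered with filterByExpr (minimum count 10, minimum total 15), which left 17532 genes. edgeR 4.0.16 (R 4.3.3) fitted 1 quasi-likelihood model of the 4 groups (robust, 8 residual degrees of freedom, common biological coefficient of variation 0.289), tested two-sided with Benjamini-Hochberg adjustment over all tested genes and a threshold of 0.05. The same script was tested on simulated counts. CPM values are TMM-scaled, errors are SD over 3 libraries, and 3 counts were taken as the limit that a count of 0 allows, for counting error only. Positions, exon lengths and overlaps are from GENCODE 29 (GRCh38). Promoters are from RefSeq (GRCh38.p14), whose starts can differ from the gene starts given.

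The 10 genes and the lists were chosen with earlier results of these data known. All 10 are described. Of each list, at most the 4 most abundant genes called in each direction with all 3 hairpins are named, and for each member called alike the gene with the highest Pearson r, which for NRP2 is not reported here. ADM, NDRG1, EGLN3, AK4, KDR, FLT1, FLT4, EDNRB, PLXNA4 and HIF1A are named outside this rule, after their values were seen. Alternatives tried were a replicate block, DESeq2 1.42.0 size factors and Wald test, library totals only, no filter, a mean of at least 50 counts, only the 6 libraries compared, stricter thresholds (0.01, or a log2 change of at least 1), each library left out, and shRNA3 libraries 1 and 2 left out together. For the lists, the last and library totals were added after seeing the data.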

Additional observations from a re-analysis of the deposited data

Results flagged for a closer look

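In 12 of 30 tests of members between pairs of hairpins, the difference itself passed edgeR's test at an adjusted p under 0.05, which is why these results are given here. Values are log2 differences, first hairpin minus second. For VEGFA the difference was -1.11 between shRNA1 and shRNA3 and -2.20 between shRNA2 and shRNA3, for ANGPTL4 it was -2.10 and for EDN1 -2.27 between shRNA2 and shRNA3. From shRNA3 library 3 alone these 4 differences were 0.35, -0.74, -0.64 and -0.96, so the first turned its sign and the others shrank. For VEGFB the difference was -0.91 between shRNA1 and shRNA2 and -1.35 between shRNA1 and shRNA3, and for NRP2 it was -1.38 and -1.53 in the same pairs. THBS1 gave 2.43 and 1.61, and PDGFB 1.28 and 0.60, again for shRNA1 against shRNA2 and against shRNA3. Of 20 other settings, the PDGFB call for shRNA1 against shRNA3 was lost in 15. In that pair the calls of VEGFB, NRP2 and THBS1 were lost in 1 each, from only the 6 libraries compared. With 3 libraries a group, single libraries were not tested for standing apart.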

How the results depend on the processing

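The members called in 1 direction with all 3 hairpins were 6 in every leave-one-out fit, and the same 6 genes were kept in all 20 alternatives, with EDN1 lower as a seventh under library totals and without shRNA3 libraries 1 and 2 (a fit where the lone shRNA3 library is assumed to vary like the other groups). Leaving out 1 library at a time gave 7 to 9 members called with shRNA1, 8 to 9 with shRNA2 and 7 to 9 with shRNA3 against NC (8677 to 13341, 7960 to 12798 and 8314 to 13330 of all tested genes). It gave 4 to 8, 3 to 8 and 0 to 8 members for shRNA1 against shRNA2, shRNA1 against shRNA3 and shRNA2 against shRNA3 (559 to 7233, 1788 to 11573 and 0 to 10800 of all tested genes). The highest values came without shRNA3 library 3. The 0 over all tested genes came without shRNA2 library 1, 2 or 3 or shRNA3 library 2, where 4159, 4094, 4248 and 3406 genes had an unadjusted p under 0.05 by edgeR.

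Counts between hairpins moved most. For shRNA1 against shRNA2, all tested genes called were 1420 with no filter, 3464 with the DESeq2 Wald test, 6251 (8 members) from the 6 libraries compared, 7031 (8 members) without shRNA3 libraries 1 and 2, 530 at an adjusted p under 0.01 and 1031 with a log2 change of at least 1. For shRNA1 against shRNA3 they were 0 from the 6 libraries compared (0 members; 4295 genes at an unadjusted p under 0.05 by edgeR), 1547 without shRNA3 libraries 1 and 2, 1249 (2 members) at the stricter p and 2971 with the log2 change, and 3 members with no filter. For shRNA2 against shRNA3 they were 596 with library totals, 911 with no filter, 3793 (5 members) with DESeq2, 0 from the 6 libraries compared (0 members, 6 at an unadjusted p under 0.05; 3186 genes), 244 (0 members) without shRNA3 libraries 1 and 2, 4 (0 members) at the stricter p and 974 with the log2 change.

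Replicate numbers in the titles are shared by the groups, but same-numbered libraries did not deviate together (mean r -0.0107 over 18 pairs, 0.00443 over 36 other pairs). With the replicate block, 3 members were called for shRNA1 against shRNA3 (4458 of all tested genes) and 1 for shRNA2 against shRNA3 (378 of all tested genes).

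Signs turned as follows. Without shRNA3 libraries 1 and 2, shRNA1 against shRNA3 gave 0.35 for VEGFA, 0.75 for ANGPTL4 and 0.22 for EDN1, shRNA2 against shRNA3 gave 0.49 for PGF and 0.55 for NRP2, and shRNA3 against NC gave -0.87 for PGF. Without shRNA1 library 3, shRNA1 against shRNA2 gave -0.066 for VEGFC and -0.11 for NRP1, and shRNA1 against shRNA3 gave -0.032 for NRP1, where the highest leave-one-out values were 0.47, 0.28 and 0.36. For PGF, shRNA1 against shRNA3 gave -0.069, -0.042 and -0.30 without shRNA1 library 1, shRNA1 library 2 and shRNA3 library 3. NRP2 for shRNA2 against shRNA3 gave 0.11 with library totals and 0.10 without shRNA3 library 1 (lowest -0.39, without library 3). PDGFB for shRNA1 against NC gave -0.0091 with a mean of at least 50 counts, and -0.021 and -0.020 without shRNA1 library 1 and library 2 (highest 0.30, without library 3). Except for the fits from fewer libraries or genes, the cause was not tested. Scaling by library totals moved the median log2 change of all tested genes to -0.10, -0.18 and -0.35 against NC, and the higher share of calls from 46.7%, 46.4% and 48.9% to 40.9%, 38.5% and 35.1%. EDN1 with shRNA2 rests on 6 to 10 counts a library, which limits its precision.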
